A study of Mus musculus with 2 samples.

Results

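The erythroid cells of the mouse spinal cord at postnatal day 4 were taken from 2 single-cell RNA libraries, one labelled SMA and one labelled Con. A barcode was a member when it had under 10% of its unique molecular identifiers (UMIs, each tagging 1 captured RNA molecule) from mitochondrially encoded genes and 50% or more from the 4 adult globin genes Hba-a1, Hba-a2, Hbb-bs and Hbb-bt. No limit was set on the number of genes, and SMA barcodes that were also listed in the Con library were left out. This gave 1626 members among 52340 barcodes, 453 of 26921 in the library labelled SMA and 1173 of 25419 in the library labelled Con. The members were thus chosen by their globin UMIs, and every comparison of members with other barcodes is a description and not a test.

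Loss of the SMN protein causes spinal muscular atrophy (SMA), in which motor neurons are lost. The library labelled SMA came from mice of genotype mSmn-/-, hSMN22tg/0 and the library labelled Con from mice of genotype mSmn+/-, hSMN22tg/0, so that both carried the human SMN2 transgene. All mice were of the FVB strain, whole cords were dissociated with trypsin and collagenase, and per the study's methods the littermates of each genotype were pooled into 1 library. The study asked which cell types and genes differ between the genotypes. With 1 library a group there is no spread between replicates, no test between groups was possible, and all intervals are 95% intervals that cover counting error only.

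Red cells mature from nucleated erythroblasts, which make haemoglobin from alpha and beta globin chains and haem, into reticulocytes, which have lost the nucleus, and then into erythrocytes, which lose their mitochondria, ribosomes and remaining RNA. Haem is made in mitochondria from an Alas2-dependent first step to iron insertion by ferrochelatase (Fech). Ubiquitin ligases and the mitophagy receptor Bnip3l take part in the clearance of organelles. In a dissociated cord such cells belong to the blood that the tissue still holds.

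The library labelled SMA held 85872075 UMIs and the library labelled Con 97894084. Of the 1173 Con members, 931 had a barcode that was listed in the SMA library too, where the copy held a median of 16.3% of the Con UMIs, and in 2 of these pairs the SMA copy was the larger. Without the rule on shared barcodes the SMA library would have had 1355 globin-rich barcodes, of which 902 were shared and 897 had their larger copy in the Con library. Whether such a pair is 2 cells or RNA of 1 cell read in both libraries was not tested, and every value that keeps or drops these barcodes rests on it. The targeted gene did not mark the labels: Smn1 (chromosome 13, 100124852 to 100137690, plus strand) had 28 UMIs in the SMA members and 46 in the Con members. Levels are given as non-globin CPM, the UMIs of a gene per 1000000 UMIs of all genes other than the 4 globins, and Smn1 was at 43.0 and 29.4 CPM (log2 ratio 0.55, interval -0.18 to 1.26). In the other kept barcodes it was at 51.7 and 49.7 CPM. Reads of a 3′ library need not fall in the altered part of that allele, so groups are named by their labels alone. The Con library also held a set of shallow barcodes that the SMA library lacked. Under 1000 UMIs it had 1507 kept barcodes that were not members, 1224 of them with under 1% mitochondrial UMIs, against 30 and 0 in the SMA library.

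The 4 globin genes that chose the members lie in 2 clusters. Hbb-bt (chromosome 7, 103812524 to 103813996) and Hbb-bs (chromosome 7, 103826534 to 103828096) are on the minus strand, and Hba-a1 (chromosome 11, 32283511 to 32284465) and Hba-a2 (chromosome 11, 32296489 to 32297298) on the plus strand, all in GRCm38. The 100 bases before the RefSeq start site (GRCm38.p6) of these genes and of Alas2 are shown because the levels of these transcripts carry most of the results. RefSeq and GENCODE place some starts differently, so that each window overlaps the GENCODE gene, and those of Hbb-bs and Hba-a1 lie wholly inside it. Capitals mark the CACCC box, the CCAAT box, the TATAA box and the GATA-type motif AGATAA, each searched on both strands with overlaps allowed.
Hbb-bs, chr7:103827929-103828028, minus strand: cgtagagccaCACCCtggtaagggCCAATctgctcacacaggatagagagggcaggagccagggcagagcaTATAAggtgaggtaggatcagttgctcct
Hbb-bt, chr7:103813924-103814023, minus strand: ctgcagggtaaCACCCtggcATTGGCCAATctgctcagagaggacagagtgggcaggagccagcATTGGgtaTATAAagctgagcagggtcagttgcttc
Hba-a1, chr11:32283572-32283671, plus strand: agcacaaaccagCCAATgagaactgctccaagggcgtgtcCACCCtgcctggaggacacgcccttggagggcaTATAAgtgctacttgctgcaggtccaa
Hba-a2, chr11:32296392-32296491, plus strand: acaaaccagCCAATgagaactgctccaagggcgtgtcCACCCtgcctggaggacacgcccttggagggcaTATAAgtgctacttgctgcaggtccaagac
Alas2, chrX:150547317-150547416, plus strand: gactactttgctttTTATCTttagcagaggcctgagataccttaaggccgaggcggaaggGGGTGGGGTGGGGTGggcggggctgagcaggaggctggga

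All 4 globin windows held the first 3 motifs. Among 32851 RefSeq windows of the same length the CACCC box was found in 27.2%, the CCAAT box in 18.9% and the TATAA box in 10.2%. Hbb-bt held 3 copies of CCAAT and Hbb-bs 1. The Alas2 window held 3 copies of CACCC on the opposite strand and AGATAA on the opposite strand, which 3.59% of all windows held, but neither of the other motifs. The windows of Hba-a1 and Hba-a2 shared an unbroken run of 97 bases, whereas the longest run shared by Hbb-bs and Hbb-bt was 14 bases. A match of letters is a description and not a binding site.

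Kept barcodes fell into 2 groups by globin share. Of the 6812 SMA and 10181 Con barcodes that were kept and were not members, 6514 and 9309 had under 1% of their UMIs from the 4 genes. The members' median share was 90.01% in the SMA and 90.3% in the Con library, with a middle range (25th to 75th percentile) of 83.2 to 92.6% and 82.3 to 93.0%. Between these groups few barcodes lay near the limit: from 45 to 50% there were 11 SMA and 27 Con barcodes, and from 50 to 55% there were 13 and 39. Those just outside had a median of 2557 and 2647 genes and those just inside 2362 and 2719, so both sides of the limit were alike in complexity. Alas2 was at 1072 and 1767 just outside and at 1719 and 2361 just inside.

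**Figure D1:**
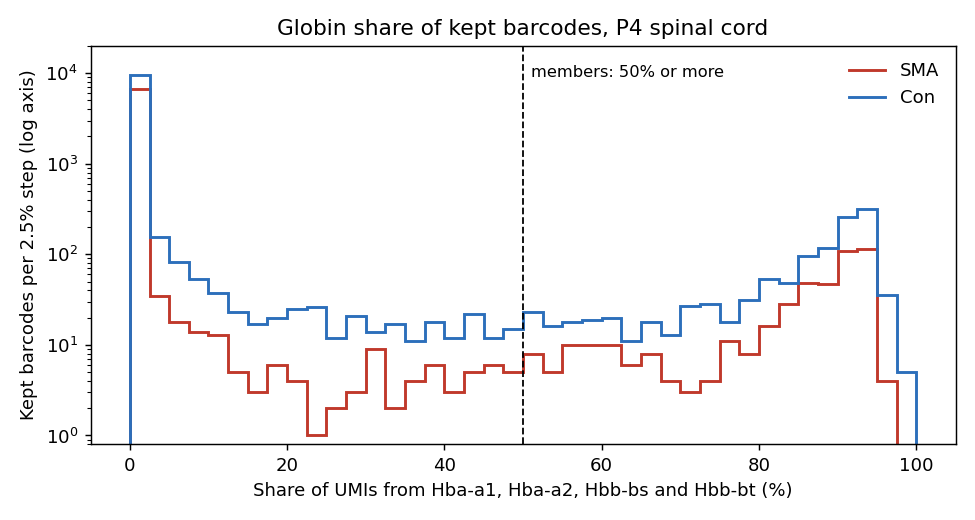
Number of kept barcodes (log axis) in steps of 2.5% of globin share for the libraries labelled SMA (red) and Con (blue), with the 50% limit dashed. Most barcodes lie below 2.5% and the members peak between 90 and 95% in both libraries.

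Within the members, Hbb-bs was the most abundant transcript, with 46.9% of all UMIs in the SMA and 46.5% in the Con members. Hba-a1 followed with 29.7% and 28.9%, and Hbb-bt with 7.48% and 8.78%. Hba-a2 was listed at 0.805% and 0.849%. Hba-a1 and Hba-a2 are near-identical copies, and the split of their reads depends on how the authors' counting placed them, so their separate levels are uncertain. In the other kept barcodes the 4 genes made up 0.672% and 1.30% of UMIs.

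The depth of the members was alike in both libraries. The median was 9696 UMIs and 353 genes in the SMA members and 9381 UMIs and 329 genes in the Con members, against 6202 and 5655 UMIs and 2489.5 and 2339 genes in the other kept barcodes. Members thus had more UMIs and far fewer genes than the other barcodes. Their UMIs outside the 4 globins summed to 650685 and 1564077. Members of 50 to 60% globin, 33 SMA and 76 Con cells, held 172681 and 442100 of these. Those of 60 to 70%, 28 and 62 cells, held 104549 and 212780. Levels summed over members thus give much weight to few cells of low globin share. The shallow end was unequal: 6 SMA and 97 Con members had under 2000 UMIs.

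The label was checked against the markers Alas2, Fech and Slc25a37, which the rule did not use directly. Alas2 (chromosome X, 150547375 to 150570638, plus strand), the erythroid enzyme of the first haem step, was at 7123 CPM in the SMA and 10911 CPM in the Con members and at 7.20 and 22.9 CPM in the other kept barcodes, 990- and 477-fold higher. Fech was 58.8- and 77.6-fold higher in members, at 1652 and 2627 CPM. Slc25a37 (chromosome 14, 69241848 to 69285112, minus strand), the mitochondrial iron importer mitoferrin, was 44.4- and 52.6-fold higher. After each cell was thinned to 2000 UMIs, which left out 6 SMA and 97 Con members, Alas2 was found in 82.1% of the SMA (367 of 447, interval 78.2 to 85.5) and 90.6% of the Con members (975 of 1076, 88.7 to 92.3). Unthinned, these shares were 95.8% and 92.3%. In other barcodes of under 1% globin, whose median depths were 6240.5 and 5743 UMIs, the thinned shares were 0.0784% and 0.276%. All 3 erythroid markers were thus far higher in the members than elsewhere in both libraries.

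Among 785 genes with 100 UMIs or more in the members of each library, 94 (12%) were 2-fold or more higher in members than in other kept barcodes in both libraries. The 15 with the highest smaller fold included Alas2, Hbq1a, Isg20, Slc4a1, Rsad2, Ube2l6, Tent5c, Mkrn1, Fech, Slc25a37, March2 and Gpx1. Hbq1a, a theta globin of the alpha cluster, was at 269 and 262 CPM, with its near-identical neighbour Hbq1b as a possible share of its reads. Slc4a1, the anion exchanger band 3, was at 172 and 116 CPM against 0.560 and 0.403. Mkrn1, a ubiquitin ligase, was at 6573 and 7866 CPM, and Gpx1, a peroxide-reducing enzyme, at 10378 and 11149.7 CPM.

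Several regulators and receptors of the early erythroid stages were scarce. Gata1, the master erythroid transcription factor, had 5 UMIs in the SMA and 7 in the Con members, and Klf1, which activates adult beta globin, had 6 and 16. Tfrc, the transferrin receptor through which erythroblasts take up iron, had 12 and 55, Kit had 4 and 11, and Epor had 7 and 9. Of 14 erythroid transcription factors 2 reached 100 UMIs over both libraries, Lmo2 and Nfe2l2. Other genes of the erythroblast list were well covered. Of its 18 genes 6 reached 100 UMIs over both libraries, and Blvrb, Car2 and Cd24a were 2-fold or more above other barcodes in each. The list summed to 6044 and 5766 CPM in members and to 2532 and 1602 CPM in other barcodes. Of 13 genes of a late reticulocyte list with a row in the files, 12 reached 100 UMIs in each library. Of these, 11 were 2-fold or more above other barcodes in each, against 94 of all 785 genes with such counts (12%). Alas2, Fech, Slc25a37, Isg20, Mkrn1 and Ube2l6 are on this list and were already named above. The cycling genes Mki67 and Top2a had 10 and 36, and 26 and 84 UMIs. Ube2c, on the cell-cycle list but known as a ubiquitin-conjugating enzyme, stood out of that list with 934 and 2488.

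The nuclear RNA Malat1 was found in 36.2% of the SMA (31.8 to 40.9) and 43.0% of the Con members (40.0 to 46.1) after thinning, against 98.4% and 98.5% of other barcodes of under 1% globin. Unthinned, 69.1% and 79.6% of members had a Malat1 UMI, against 98.6% and 85.6% of those other barcodes. Thinning counted globin UMIs too, so a thinned member kept far fewer non-globin UMIs than a thinned barcode of under 1% globin. The thinned shares are thus not matched for non-globin depth. The level of Malat1 followed the globin share. Members of 50 to 60% globin, 33 in the SMA and 76 in the Con library, had medians of 2371 and 2454.5 genes and Malat1 at 17419 and 16236 CPM. Those of 90 to 95%, 223 and 574 cells, had 302 and 290 genes and Malat1 at 1306 and 2338 CPM. Alas2 went the other way, from 1581 and 2633 CPM to 15483 and 24407 CPM. The mitochondrially encoded share of non-globin UMIs went from 7.48 and 6.63% to 27.7 and 21.2%. The mitochondrial limit was set on all UMIs, globins included, so it allowed a higher share of non-globin UMIs at higher globin share. The part of this limit in the rise was not tested. Both ends of the globin share had globin-rich barcodes of good depth, with median totals of 12522 and 14223 UMIs at 50 to 60% and 10238 and 9934 UMIs at 90 to 95%.

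**Figure D2:**
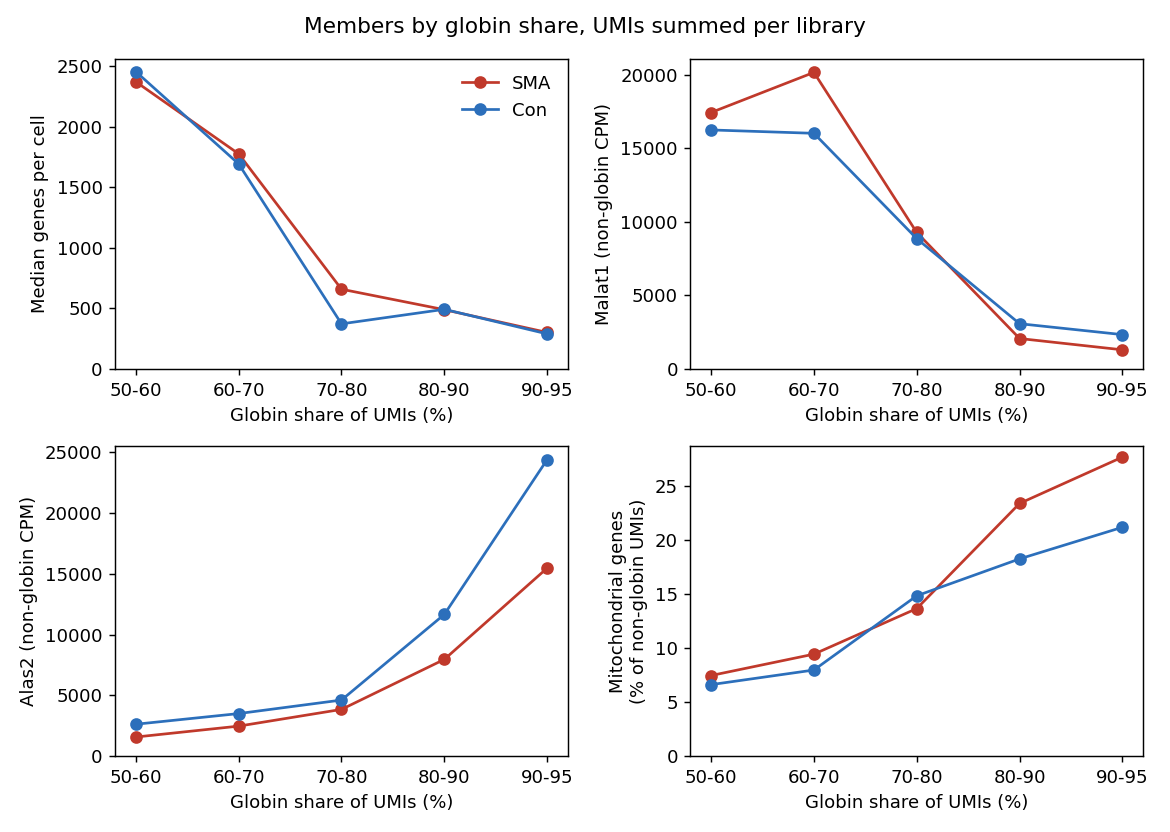
Median genes per cell, Malat1 and Alas2 levels (non-globin CPM, UMIs summed per library) and the mitochondrial share of non-globin UMIs for members of the libraries labelled SMA (red) and Con (blue) by globin share. From 50-60% to 90-95% globin the median number of genes goes from 2371 to 302 (SMA) and from 2454.5 to 290 (Con), Malat1 is lower, and Alas2 is below Con in SMA in every step.

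Some lists of markers of other cell types were lower at high globin share and others were not. The summed level of 8 microglial genes was 6237 and 3244 CPM in members of 50 to 60% globin and 331 and 373 CPM at 90 to 95%. The 8 endothelial genes summed to 86.9 and 1163 CPM in the first group and to 46.4 and 111 CPM in the second. The 8 oligodendrocyte genes summed to 2762 and 2235 CPM in the first group and to 2369 and 4959 CPM in the second, so that they were lower in the SMA and higher in the Con library at high globin share. The 8 astrocyte genes went the opposite way, from 1564 to 2357 CPM in the SMA and from 2714 to 1904 CPM in the Con library. Of the lists for blood cells, lymphocyte markers were nearly absent, with 6 of 7 genes at 0 in both libraries (Cd79a, Ms4a1, Cd3e, Cd3d, Trbc2 and Nkg7), and 4 of 8 neutrophil, 3 of 7 platelet and 2 of 6 monocyte genes were at 0 in both. The sums of the neutrophil and lymphocyte lists were between 4.61 and 8.31 CPM over all members. The part of other cells in the members was not tested.

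Members differed among themselves in which beta globin they carried. Hbb-bt made up 13.7% of beta-globin UMIs in the SMA and 15.9% in the Con members as a whole, but the share ranged from 3.26 to 19.1% between the 5th and 95th percentile of the 447 SMA members of 2000 UMIs or more, and from 3.38 to 22.2% in the 1076 Con members. The following steps of Hbb-bt share were chosen after the values were seen and use members of 80% globin and 2000 UMIs or more. There were 41 SMA and 84 Con members with under 6%, 92 and 149 from 6 to 12%, 203 and 446 from 12 to 18%, and 29 and 208 at 18% or more.

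Depth and the red cell genes described here were higher in the highest than in the lowest step in both libraries. From the lowest to the highest step the median total went from 3902 to 13986 UMIs in the SMA and from 3917.5 to 12634.5 in the Con members. Slc4a1 went from 0 to 436 CPM and from 24.0 to 308 CPM. Gpx1 went from 1945 to 30863 CPM and from 1391 to 28775 CPM, and Bpgm, which makes the 2,3-bisphosphoglycerate that tunes oxygen release, from 549.7 to 8873 CPM and from 1007 to 12618 CPM. Alas2 differed less along the axis, from 5370.4 to 13092 CPM and from 11149.5 to 19444 CPM. For Gpx1 and Bpgm the lowest step stood far below the rest, and this order was seen in each library separately.

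The mitochondrial share of non-globin UMIs and the ratio of alpha to beta globin went the opposite way. The mitochondrial share went from 35.6 to 19.6% in the SMA and from 28.9 to 15.8% in the Con members. The alpha over beta ratio went from 0.709 to 0.550 and from 0.715 to 0.522. Car2, a carbonic anhydrase, was at 211 and 120 CPM in the lowest step and at 2569.9 and 2242 CPM in the highest, and Malat1 at 2241 and 3453 against 679 and 1982 CPM. Since the Hbb-bt share is read from the same cells and goes with depth, these orders are descriptions. The part of depth in them was not tested.

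**Figure D3:**
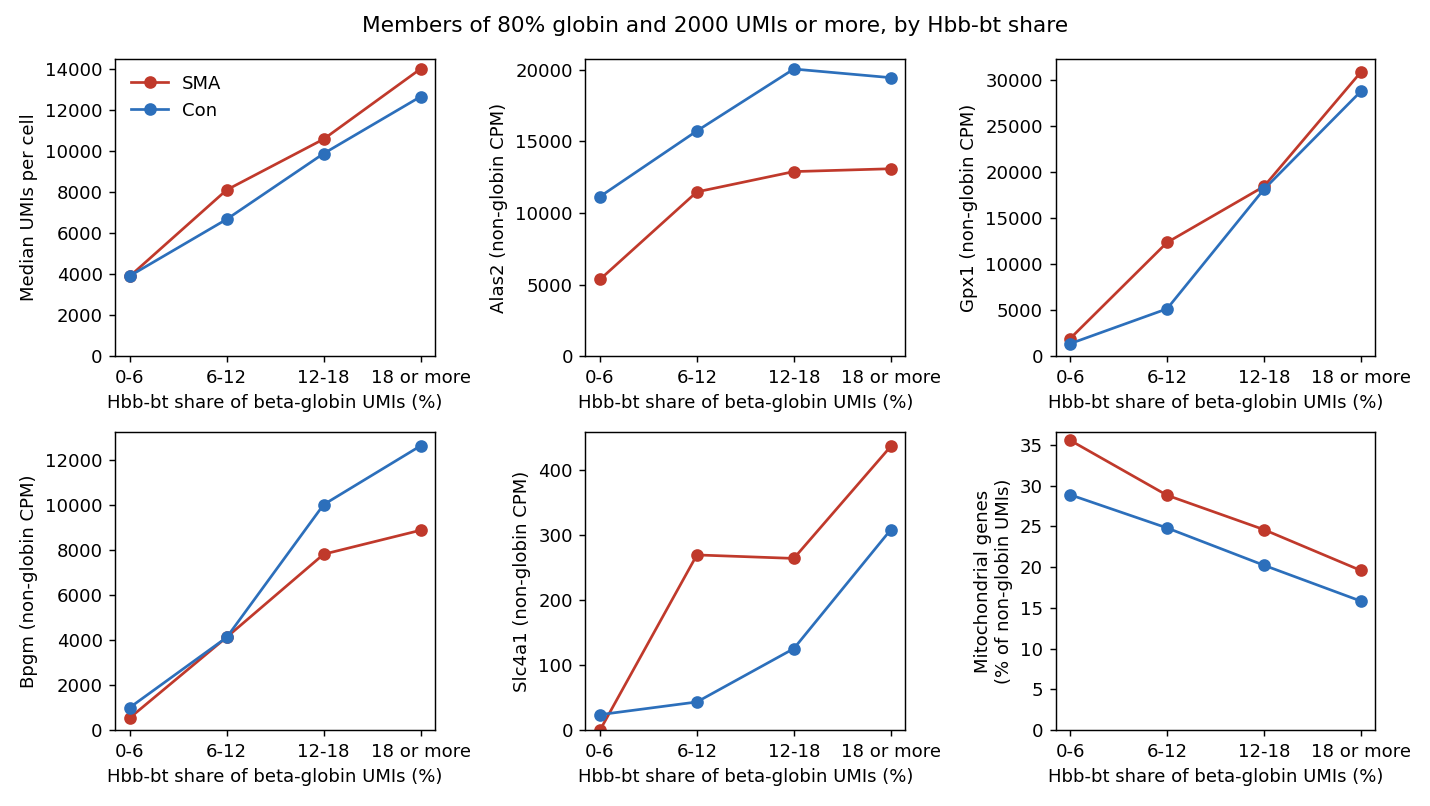
Median UMIs per cell, Alas2, Gpx1, Bpgm and Slc4a1 levels (non-globin CPM) and the mitochondrial share of non-globin UMIs in members of 80% globin and 2000 UMIs or more, by the Hbb-bt share of beta-globin UMIs, for SMA (red) and Con (blue). Depth, Gpx1 and Bpgm go up and the mitochondrial share goes down in both libraries. Alas2 is lower in SMA at every step.

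The share of erythroid barcodes was lower in the library labelled SMA. It was 6.24% of 7265 kept barcodes (5.69 to 6.82) against 10.3% of 11354 in the library labelled Con (9.78 to 10.9), a log2 ratio of -0.73 (-0.88 to -0.58). Among barcodes of 2000 UMIs or more the shares were 6.32 and 12.1% (log2 ratio -0.94, -1.09 to -0.79). With SMA copies of Con barcodes kept, they were 9.33 and 10.3% (-0.15, -0.25 to -0.04). When barcodes listed in both libraries were left out of Con too, the log2 ratio was 0.015. The sources used here do not say whether the cords were cleared of blood, and blood content and genotype cannot be told apart.

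Within the members, 64 of 2521 genes with 100 UMIs or more over both libraries were 2-fold or more apart (2.54%), 19 higher (0.754%) and 45 lower (1.79%) in the library labelled SMA. The interval lay below 0 for 415 genes (16.5%) and above 0 for 258 (10.2%), and the median gene was at -0.068 on the log2 scale. None of the erythroid list genes that reached 100 UMIs was 2-fold apart. Counts for these lists are read against the shares of genes whose interval lay off 0.

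Alas2, Fech and most iron genes were lower in the SMA members, while the haem synthesis list was mixed. Of its 7 genes that reached 100 UMIs, 4 were lower and 3 higher, 3 had intervals below 0 and none above, and the median log2 ratio was -0.20. Alas2 had 4635 UMIs in the SMA and 17066 in the Con members, 7123 against 10911 CPM, a log2 ratio of -0.62 (-0.66 to -0.57). In the other kept barcodes, where the 4 globins were 0.672 and 1.30% of UMIs, Alas2 was also lower in the SMA library (-1.67, -1.84 to -1.50). Fech, which inserts iron into the haem ring, was at -0.67 (-0.77 to -0.57). Slc25a39, a mitochondrial carrier needed for haem synthesis, was at 1113 against 1508 CPM (-0.44, -0.56 to -0.32). The middle-step enzymes Alad (0.19) and Urod (-0.20) had intervals that held 0.

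Alas2 was lower in the SMA members in each step of globin share from 50 to 95% and in each step of Hbb-bt share. It was also lower in each depth step from 2000 UMIs up, with shared barcodes kept in Con. Alas2 was at 3762 against 5537 CPM at 2000 to 5000 UMIs and at 8796 against 15929 CPM at 5000 to 10000. With 10000 UMIs or more it was at 6862 against 10059 CPM. At 90 to 95% globin it was at 15483 against 24407 CPM and Fech at 3326 against 5797 CPM. The thinned share of members with a Fech UMI was 37.6% (33.1 to 42.3) against 46.7% (43.7 to 49.8), with 4.85 and 5.04% in the other barcodes of under 1% globin. Unthinned, the members' shares were 77.5 and 78.0%. The size and direction depended on how shared barcodes were treated. With SMA copies of Con barcodes kept, the log2 ratio was -0.40 for Alas2, -0.44 for Fech, -0.17 for Ftl1, -0.21 for Fth1, -0.31 for Bpgm and -0.23 for Prdx2. Leaving out the 931 Con members with a barcode in both libraries left 242, of which 97 had under 2000 UMIs. In these 242 the median total was 2266 UMIs against 10360 in the 931, the mitochondrial share of non-globin UMIs was 24.9% against 13.3%, and Alas2 was at 5069.99 against 11352 CPM. Against these 242 the Alas2 log2 ratio was 0.49 and the Fech ratio 0.73, and the medians of the haem, iron, enzyme, clearance, late reticulocyte and cell-cycle lists were positive.

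Of 6 iron-handling genes, 5 had intervals below 0 and 1, Hmox1, above (0.74, 0.14 to 1.32). Hmox1 encodes haem oxygenase, which breaks haem down. Ftl1 and Fth1, the ferritin chains that store iron, were at 16204.5 against 21078 CPM (-0.38, -0.41 to -0.35) and at 9709.8 against 12939.9 CPM (-0.41, -0.46 to -0.37). Blvrb, biliverdin reductase B, was at -0.48 (-0.62 to -0.35). Slc25a37 was at 533 against 628 CPM (-0.24, -0.42 to -0.06) and Glrx5, which serves iron-sulphur cluster assembly, at -0.26 (-0.41 to -0.11).

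Membrane and skeleton genes did not follow. Of 10, 4 had intervals above 0 and 1 below, with a median log2 ratio of 0.06. Among those above, Slc4a1 was at 172 against 116 CPM (0.57, 0.22 to 0.92), the skeletal protein Epb41 at 0.28 (0.06 to 0.50) and the Rhesus antigen Rhd at 0.59 (0.03 to 1.14). The one below was Bsg at -0.91 (-1.03 to -0.78), which many other cell types also express, at 2202 and 2628 CPM in other kept barcodes. Its ratio was -0.39 among members of 90% globin or more. Against the 242 Con members with an unshared barcode, Slc4a1 had a log2 ratio of 4.24 (1.73 to 9.55), which rests on 1 UMI in those Con members, and Epb41 one of 1.32 (0.63 to 2.10).

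**Figure D4:**
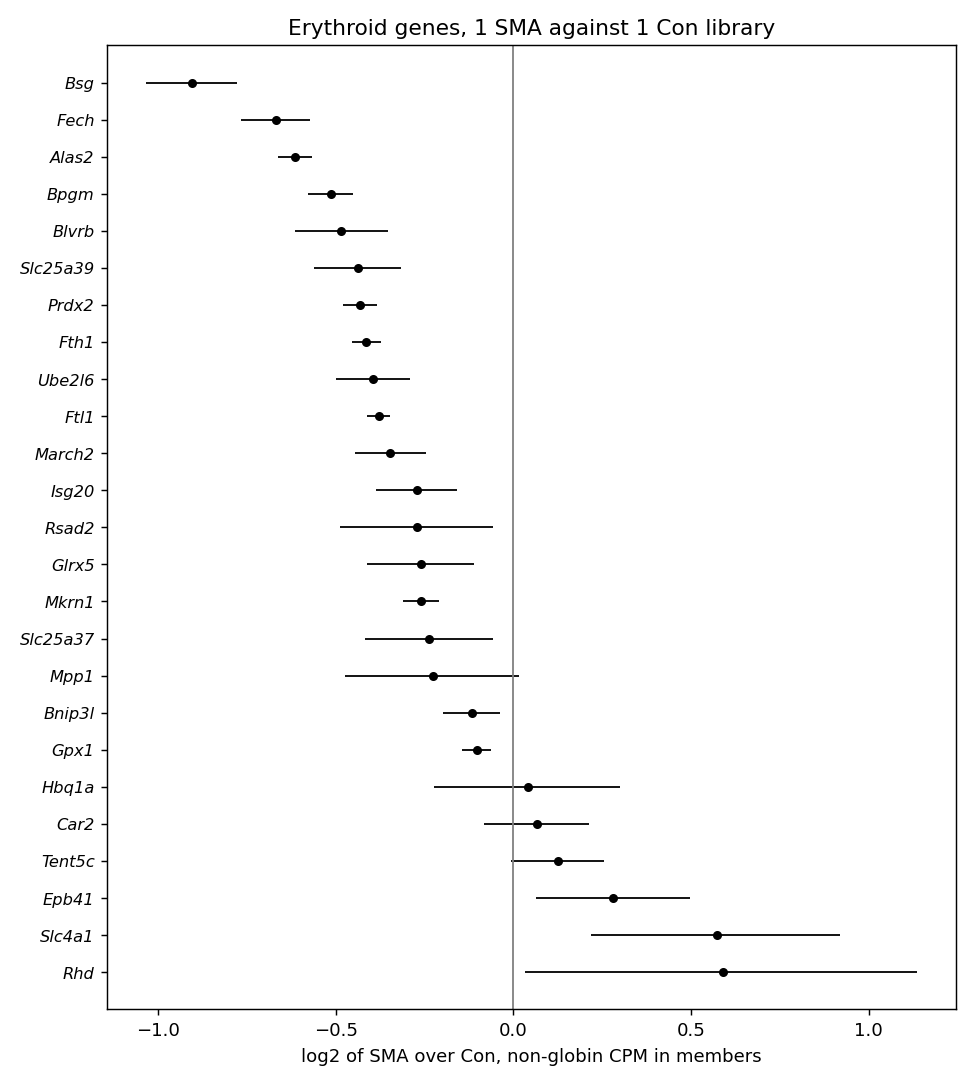
Log2 ratio of non-globin CPM in members of the library labelled SMA over those of the library labelled Con for 25 erythroid genes, with exact 95% intervals for counting error. Bsg, Fech and Alas2 lie lowest, and Epb41, Slc4a1 and Rhd have intervals above 0.

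Genes for red cell enzymes and organelle clearance were mostly lower by small amounts. Of 10 enzyme genes 5 had intervals below 0 and none above (median -0.26). Bpgm was at 3930 against 5615 CPM (-0.51, -0.58 to -0.45) and Prdx2, the abundant peroxiredoxin of red cells, at 7049 against 9507 CPM (-0.43, -0.48 to -0.38), while Car2 was at 0.07 (-0.08 to 0.21). Of 16 clearance genes 10 had intervals below 0 and none above (median -0.23). Mkrn1 was at -0.26 (-0.31 to -0.21), Ube2l6 at -0.40 (-0.50 to -0.29) and Bnip3l at -0.12 (-0.20 to -0.04).

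The late reticulocyte list, which shares most of its genes with the lists above, had 10 of 12 intervals below 0 and 1 above, Slc4a1, with a median of -0.30. The erythroblast list had 3 of 6 above and 2 below, with a median of 0.33. The genes above were Rhd and the metallothioneins Mt1 (0.88, 0.77 to 0.99) and Mt2 (0.73, 0.47 to 0.99), which many stressed cells make, and those below were Blvrb and Cd24a (-0.26, -0.36 to -0.17). Mt1 and Mt2 were higher in the other SMA barcodes by as much (0.80 and 0.73), and their levels in members were close to those in other barcodes. Of 11 cell-cycle genes 4 had intervals below 0 (Cdk1, Rrm2, Cenpa and Ube2c) and none above (median -0.11). The cell-cycle median was 0.37 at a limit of 70% globin and 0.002 with 200 to 4000 genes, so no direction is given for it.

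The mitochondrial and ribosomal shares were higher in the SMA members than in all Con members, but not than in the 242 Con members whose barcode was in the Con library alone. Mitochondrially encoded genes made up 17.4% of non-globin UMIs in the SMA and 14.1% in the Con members, against 6.29 and 6.31% in other kept barcodes. The mitochondrial limit was set on all UMIs, globins included, so members could reach a higher share of non-globin UMIs than other barcodes. The part of this limit in the gap between members and other barcodes was not tested. Ribosomal-protein genes made up 13.4 and 12.5% of non-globin UMIs in the SMA and Con members, a log2 ratio of 0.10. In those 242 Con members the mitochondrial share was 24.9% and the ribosomal share 15.8%, both above the SMA members. Those 242 were shallower, with a median total of 2266 UMIs against 9696 in the SMA members. With shared barcodes kept in Con, the mitochondrial share was higher in SMA in each depth step from 2000 UMIs up. It was 30.4 against 24.2% at 2000 to 5000 UMIs, 24.6 against 20.7% at 5000 to 10000 and 13.6 against 10.9% at 10000 or more. The alpha over beta globin ratio was 0.561 and 0.539 by summed UMIs (log2 ratio 0.059, 0.055 to 0.063). This small difference turned to -0.093 when each cell had equal weight and to -0.012 with SMA copies of Con barcodes kept, so no direction is given for it. Hbb-bt per beta-globin UMI was lower in the SMA library in the members (13.7 against 15.9%) and in the other kept barcodes (11.3 against 13.8%). It was 16.3% in the 931 Con members with a shared barcode and 7.57% in the 242 others, so that the SMA members were higher than the latter.

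Embryonic globins were almost absent. Hbb-bh1 had no UMI in either library, with upper limits of 5.67 CPM in the SMA and 2.36 CPM in the Con members. Hbb-y had 1 and 4 UMIs and Hbb-bh2 had 4 and 2. Hba-x, the embryonic zeta chain, had 1 UMI in the SMA and 62 in the Con members, of which 60 were in 1 cell.

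The genes furthest apart between the libraries were not red cell genes. The 8 lowest in the SMA members included Xist, Acta2, Timp1, Cldn5, Pglyrp1, Col3a1 and Igfbp7. Xist, the RNA of the inactive X chromosome, had 7 UMIs, all in 1 SMA cell, and 533 UMIs in 93 Con cells (log2 ratio -4.99, -6.31 to -3.93). It was lower in the other SMA barcodes too, at 1.64 against 573 CPM, while 4 genes of the Y chromosome summed to 123 CPM in the SMA and 46.0 CPM in the Con members. The sexes of the pooled mice are not in the labels, so sex and genotype cannot be told apart. The others named include markers of mural cells (Acta2), endothelium (Cldn5, Pglyrp1) and fibroblasts (Col3a1), and all were also lower in the other SMA barcodes, by log2 ratios from -0.22 to -3.87. Cldn5 had 13 UMIs in the SMA and 276 in the Con members. Timp1 had 95 of its 106 Con UMIs in 1 cell and Acta2 63 of 117. With SMA copies of Con barcodes kept, the log2 ratio was -2.08 for Xist, -1.56 for Acta2, -1.67 for Cldn5 and -1.52 for Igfbp7. Without the top cell of each library it was -2.19 for Timp1, and with each cell weighted equally it was -1.35 for Cldn5, -1.25 for Pglyrp1 and -1.58 for Igfbp7.

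The 8 highest in the SMA members were Spp1, Ecrg4, Fam183b, mt-Nd4l, Hist1h2bc, Atf3, mt-Atp8 and Fcrls. Spp1, which encodes osteopontin, was at 625.5 against 45.4 CPM (log2 ratio 3.78, 3.42 to 4.17), but 386 of its 407 SMA UMIs were in 1 cell, and without the top cell of each library the ratio was -0.015. The mitochondrially encoded mt-Nd4l was spread over 290 SMA and 312 Con cells, at 842 against 239 CPM (1.82, 1.62 to 2.01), and mt-Atp8 over 93 and 92 cells (1.38, 0.97 to 1.79). Both were higher in the other SMA barcodes as well, by 1.32 and 0.89. Against the 242 Con members with an unshared barcode the log2 ratios were 0.91 and 0.44, under 2-fold. Hist1h2bc, a histone gene, was at 1.54, but at 0.75 among members of 90% globin or more and at 0.96 with each cell weighted equally. With equal weights Ecrg4 was at 1.72 in place of 2.81, Fam183b at 1.42 in place of 2.12 and Fcrls at 0.99 in place of 1.30. Fcrls is a microglial gene, and all 7 microglial list genes that reached 100 UMIs had intervals above 0 in the SMA members. The microglial sum was 4038 against 2796 CPM in other kept barcodes and 3246 against 2082 CPM in members. At 90% globin or more it was 327 against 374 CPM. All 6 oligodendrocyte list genes that reached 100 UMIs had intervals below 0 in the SMA members (median -0.52). The oligodendrocyte sum was 11446 against 15479 CPM in other kept barcodes and 3426 against 4928 CPM in members. At 90% globin or more the oligodendrocyte sum was 2373 against 4913 CPM. The part of microglial and oligodendrocyte RNA in the members was not tested.

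**Figure D5:**
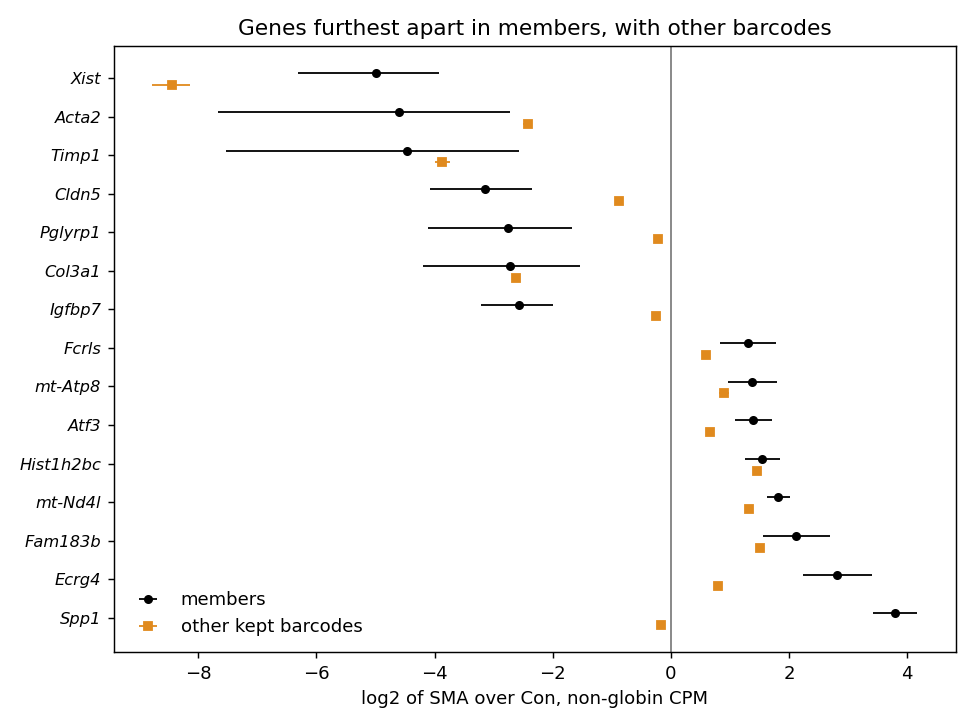
Log2 ratio of SMA over Con (non-globin CPM, exact 95% intervals for counting error) in members (black circles) and other kept barcodes (orange squares) for 7 of the 8 lowest and the 8 highest genes of the members. In 14 of the 15 genes drawn the other barcodes lie on the same side of 0, and Spp1 is the exception.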

How the data were processed

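The deposited files hold raw UMI counts per gene and barcode, made by the authors from 10x 3′ libraries with Cell Ranger (4.0.0 per the file headers, build mm10 per the submitters' processing notes) and listing 26921 and 25419 barcodes with at least 737 and 519 UMIs. The counts carry no depth correction. The gene limits of the authors (200 to 4000) were not applied, because the members were defined without them. Groups came from the sample labels, with 1 library each. Member UMIs were summed per library and expressed as CPM over all genes except the 4 globins. Ratios have exact conditional binomial intervals, shares exact Clopper-Pearson intervals and ratios of shares log-scale intervals, at the 95% level. A gene was compared with 100 UMIs or more over both libraries, and 2-fold was used as a call with no test. Ratio intervals were tested on simulated data. Positions came from GENCODE M21 by gene identifier (99.6% of 32285 matched) and promoter windows from RefSeq. No doublet caller was run. Genes named were the 8 most extreme in each direction, the 15 highest over other barcodes by the smaller fold, and members of fixed lists. A few genes that the rule or the lists would name are not reported here. Members and lists were chosen with earlier results of these data known. Alternatives to the limits on barcodes, genes and shared barcodes were computed. Python 3.11.15, numpy 2.4.6, pandas 2.3.3 and scipy 1.17.1 were used.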

Additional observations from a re-analysis of the deposited data

How the results depend on the processing

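No paired analysis was possible because each group was 1 library. Ratios are log2 of SMA over Con, and the cause was not tested. Keeping SMA copies of Con barcodes gave -0.15 for the share of erythroid barcodes, 21 genes 2-fold lower, -0.16 for iron handling and for the late reticulocyte list, -0.012 for alpha over beta globin and 0.057 for the ribosomal share. Leaving barcodes of both libraries out of Con too, which left 242 Con members, gave 0.015 for the share, 114 genes 2-fold higher and 20 lower, list medians of 0.73 (haem), 0.92 (iron), 1.66 (membrane), 1.09 (enzymes), 1.47 (clearance), 1.19 (erythroblast), 1.32 (late reticulocyte) and 0.65 (cell cycle), -0.49 for alpha over beta and -0.23 for the ribosomal share. It also turned Alas2 to 0.49, Blvrb to 1.19, Bnip3l to 1.57, Bpgm to 2.24, Fech to 0.73, Fth1 to 0.38, Ftl1 to 0.14, Gabarapl2 to 1.56, Gclm to 0.17, Glrx5 to 1.06, Gpx1 to 2.68, Isg20 to 1.22, Map1lc3b to 1.20, March2 to 1.39, Mkrn1 to 1.81, Prdx2 to 0.94, Rnf10 to 0.86, Rsad2 to 1.18, Slc25a37 to 0.92, Slc25a39 to 0.98, Ubb to 0.29 and Ube2l6 to 0.99. A limit of 70% globin gave 8 genes higher and 18 lower, 0.16 for the erythroblast and 0.37 for the cell-cycle list and 0.13 for the ribosomal share. A limit of 90% gave 5 and 13 genes, -0.53 for haem, 0.10 for erythroblast, 0.086 for alpha over beta and 0.20 for the ribosomal share, and with 2000 UMIs or more as well (chosen after seeing the data) 6 and 13 genes, -1.03 for the share, -0.52, 0.11, 0.085 and 0.20. Alpha over beta was 0.065 with a mitochondrial limit of 20%, 0.071 with 200 to 4000 genes and 0.065 with 2000 UMIs or more, where the share was -0.94. With each cell weighted equally, iron handling was -0.48, erythroblast 0.024, late reticulocyte -0.44, the ribosomal share 0.089 and alpha over beta -0.093. At least 50 UMIs per gene gave 64 genes higher, 130 lower and 0.066 for erythroblast, and at least 300 gave 8, 10 and 0.066. Without the top cell of each gene and library (chosen after seeing the data) Spp1 was at -0.015.

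With the shared barcodes kept in Con, 105 recomputed summaries stayed within their interval or 1.5 times the count, 37 moved and 2 turned. The cell-cycle list had too few genes left at 90% globin. Alas2 then ranged from -0.78 to -0.40, Fech from -0.83 to -0.44 and Slc4a1 from 0.42 to 0.80, against 4.24 with the shared barcodes left out of Con. Depth limits genes such as Gata1, Klf1, Tfrc, Kit and Epor, each with under 60 UMIs in either library. With 1 library a group, differences between mice, sex, dissociation and genotype cannot be told apart.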

Other observations

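A set of Con members differed from all other members in the split of alpha-globin UMIs. In 39 Con members and 0 SMA members, Hba-a2 made up over 10% of Hba-a1 and Hba-a2 UMIs, a limit chosen after the values were seen. The share in these 39 ran from 12.1 to 52.4% with a median of 42.7%, whereas in the other 1134 Con members its median was 2.26% and its highest value 9.47%, and in the 453 SMA members 2.27% and 8.70%. Of the 39, 38 had under 2000 UMIs, and 0 had a barcode that was listed in both libraries. They had a median of 674 UMIs, 28 genes and 0.148% mitochondrial UMIs, against 9502 UMIs, 336.5 genes and 2.0% in the other Con members. Together they held 84 Alas2 and 3 Malat1 UMIs. Ribosomal-protein genes were 36.2% of their non-globin UMIs, against 12.4%.

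The shallow Con barcodes that were not members had values of the same kind. Of 1507 kept under 1000 UMIs, 1079 had no Malat1 UMI, the median mitochondrial share was 0.181%, ribosomal-protein genes were 43.6% of non-globin UMIs, and Hba-a2 was 10.2% of 3648 alpha-globin UMIs. At 2000 UMIs or more, the 7806 Con barcodes that were not members had a median mitochondrial share of 6.56% and Hba-a2 at 2.16%. The 30 SMA barcodes under 1000 UMIs had a median mitochondrial share of 7.51% and ribosomal-protein genes at 14.8%. What these shallow Con barcodes are was not tested.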
